A study of Mus musculus with 12 samples.

Results

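The 8 genes described here are the semaphorins Sema4a, Sema4b, Sema4c, Sema4d, Sema4f and Sema7a and the plexins Plxnc1 and Plxnd1, out of 14323 genes with counts. They were chosen by name as members of these families, and the choice also used measured values, since Sema7a was known to be among the genes most induced by CD3 in these samples. The CD3 responses of the 8 genes are therefore given as levels, ratios, log2 fold changes and ranks without a test. The same holds for the difference between the anti-LAIR-1 effects with and without anti-CD3, which equals the difference between the CD3 responses. Tests are given for anti-LAIR-1 against isotype, which compares other pairs of conditions but shares the anti-CD3 libraries with the contrasts used for choosing.

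Semaphorins are secreted or membrane-bound ligands that share an extracellular sema domain, and plexins are their main receptors. Plexins carry a cytoplasmic domain that acts on small GTPases, and through it they change the cytoskeleton and integrin adhesion. Both families were first studied in axon guidance, and several class 4 semaphorins and Sema7a, which is held in the membrane by a GPI anchor, also act between lymphocytes, dendritic cells and other leukocytes.

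The samples were naïve CD8 T cells, sorted by surface markers (among them CD44−), from spleens of 3 wild-type mice, which the general methods of the study describe as adults on a C57BL/6N background. Cells were cultured for 6 h at 100000 cells per well in wells coated with antibody, and the experiment asked how engagement of LAIR-1, an inhibitory collagen receptor, changes the transcriptome with and without stimulation through CD3. Libraries were made from the RNA of single wells by a modified CEL-seq method, which counts the 3′ end of transcripts. The conditions were isotype control only (unstimulated isotype), clone 2C7 against LAIR-1 without anti-CD3 (unstimulated anti-LAIR-1), clone 145-2C11 against CD3ε with isotype (anti-CD3 isotype), and both clones together (anti-CD3 anti-LAIR-1), with each clone at 2.5 µg/ml. Each condition had 3 libraries, 1 from each mouse, so that the same animals contributed to all 4 conditions. Antibodies coated on plastic stood in for antigen and for collagen in this system, and a single time point was measured.

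Library totals were 1781218 to 2957929 counts in the unstimulated isotype group, 3547294 to 3589194 in the unstimulated anti-LAIR-1 group, 3478294 to 6555730 in the anti-CD3 isotype group and 4889990 to 7725545 in the anti-CD3 anti-LAIR-1 group. Mitochondrial genes held 17.6% to 20.9% of the counts in the unstimulated libraries and 11.5% to 13.2% in the anti-CD3 libraries, and the bearing of this shift on the other genes was not tested. Levels are given as CPM (counts relative to library size), scaled by the TMM method over all 12 libraries, in the order mouse 1, 2 and 3. On this scale 3 counts corresponded to between 0.405 CPM in the deepest library and 1.62 CPM in the shallowest. Intervals around ratios of summed counts are 95% exact binomial intervals and cover counting error only.

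Marker genes of CD8 T cells were expressed in all groups and Cd4 was close to 0. Cd8a, which encodes the CD8 alpha chain, was at 420 ± 20.2 CPM in the unstimulated isotype group and 347 ± 32.2 CPM in the anti-CD3 isotype group (SD, n = 3), whereas Cd4 was at 0.724 ± 0.832 CPM in the former and had 0 counts in all 3 libraries of the latter. The 6 measured CD8 T cell genes were all called lower with anti-CD3 and isotype by edgeR, and their sum went from 3497 ± 257 to 1931 ± 73.9 CPM, with Cd8b1 going from 616 ± 58.9 to 189 ± 13.7 CPM. All 5 stimulation genes (Cd69, Il2ra, Nr4a1, Egr2 and Myc) were higher with anti-CD3, and Ccr7, Lef1, Tcf7, S1pr1 and Klf2, which are typical of naïve T cells, were lower, in both antibody settings (quasi-likelihood F-test in edgeR, Benjamini-Hochberg). A further planned gene of naïve T cells was left out after its values were seen, so the named genes do not stand for the whole list. Over all genes, 35.3% were called higher and 36.1% lower with isotype, and 36.4% and 36.3% with anti-LAIR-1. Cd69, an early activation antigen, went from 82.3 ± 8.96 to 542 ± 27.2 CPM with isotype. Lair1 itself was close to the detection limit, with 12 and 9 counts in the unstimulated isotype and anti-LAIR-1 groups and 15 and 4 counts in the corresponding anti-CD3 groups.

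Anti-CD3 split the semaphorins into genes with more RNA and genes with less. Sema7a went from a few counts per group to 3166 with isotype and 2691 with anti-LAIR-1, Sema4c appeared from 0 counts, and Sema4a and Sema4f were at a small fraction of their unstimulated level. Sema4b and Sema4d differed less between stimulated and unstimulated cells. In these bulk samples, fewer cells expressing a gene and less RNA per cell cannot be told apart.

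**Figure D1:**
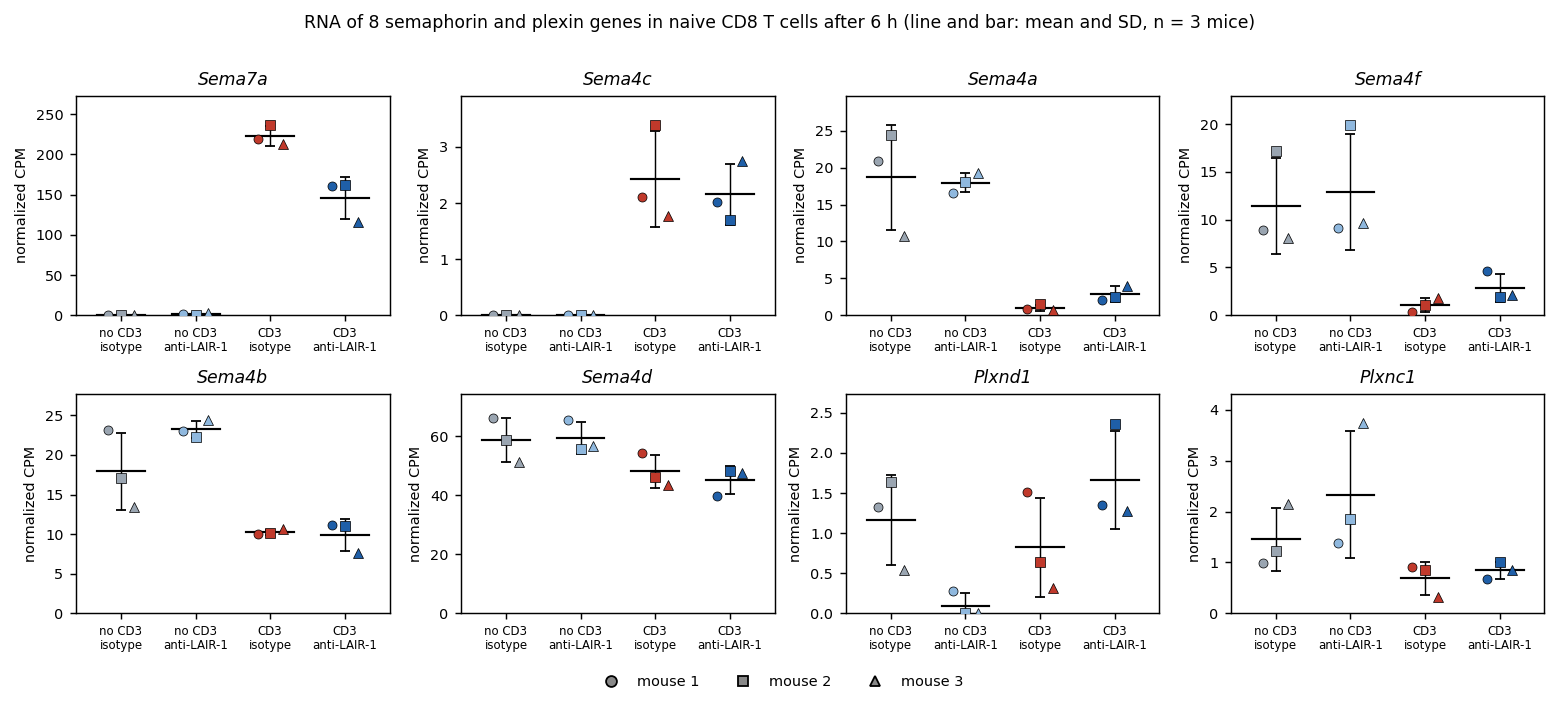
Normalized CPM (vertical axes from 0, with a scale of their own for each gene) of the 8 genes in the 4 conditions, with 1 symbol per mouse and the mean and SD over 3 mice as line and bar. Sema7a lies between 115 and 237 CPM in the 6 anti-CD3 libraries and at or below 2.68 CPM in the 6 unstimulated libraries, while Sema4a and Sema4f show the opposite order.

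Sema7a (chr9:57940112-57962865 in mm10, plus strand), a ligand of plexin C1 and of beta 1 integrins, was at 0.331, 0.816 and 0 CPM in the unstimulated isotype libraries, from 1, 2 and 0 counts. It was at 1.66, 0.796 and 2.68 CPM in the unstimulated anti-LAIR-1 libraries, at 219, 237 and 213 CPM in the anti-CD3 isotype libraries and at 161, 161 and 115 CPM in the anti-CD3 anti-LAIR-1 libraries. The stimulated and unstimulated libraries were far apart in every mouse, and with anti-CD3 each isotype library was above each anti-LAIR-1 library. The 3166 counts in the anti-CD3 isotype group against 3 in the unstimulated isotype group gave a ratio of 543 after scaling, with a counting interval of 186 to 2633. The fitted log2 fold change of 8.94 rose to 9.83 without the unstimulated isotype library of mouse 2. With anti-LAIR-1 in both conditions the ratio was 87.2 (55.7 to 145), from 2691 against 19 counts. By fitted log2 fold change Sema7a ranked 5 among 8690 genes from the highest with isotype and 16 among 9000 with anti-LAIR-1. In the latter contrast its log2 fold change was 6.39 ± 0.24 (SE). These ranks restate the choice, which used the CD3 response of Sema7a, and no conclusion is drawn from them. Sema7a entered both ranked sets only by its anti-CD3 libraries.

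Sema7a was lower when LAIR-1 was engaged together with CD3. Its mean fell from 223 ± 12.1 to 146 ± 26.3 CPM (SD, n = 3), which left 65.4% of the isotype level. The log2 fold change was −0.61 ± 0.11 (SE) with an adjusted p of 0.00175 (quasi-likelihood F-test in edgeR, over 8800 genes), and the gene was lower in 3 of 3 mice. After adding 0.5 CPM to each level, the log2 differences within mouse 1, 2 and 3 were −0.44, −0.55 and −0.88, with the lowest anti-LAIR-1 value in mouse 3.

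Without anti-CD3 the order was the other way round but rested on few counts. Sema7a had 19 counts with anti-LAIR-1 against 3 with isotype, a ratio of 4.18 with a counting interval of 1.23 to 22.0. The libraries of both groups overlapped, the gene was higher in 2 of 3 mice, and its counts were too low for the filter used before testing. Tested without that filter, the log2 fold change of Sema7a was 1.97 ± 1.07 (SE) with an adjusted p of 0.933. The difference between the anti-LAIR-1 effects with and without anti-CD3, fitted over all 12 libraries, was −2.59 ± 0.80 (SE) on the log2 scale and is not tested. It ran from −3.51 without the unstimulated isotype library of mouse 2 to −2.12 without the unstimulated anti-LAIR-1 library of mouse 3. In order of level, the anti-CD3 isotype group was above the anti-CD3 anti-LAIR-1 group without overlap, and both were above the unstimulated groups, which overlapped each other.

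Sema4c (chr1:36548639-36558349, minus strand), a transmembrane class 4 semaphorin, had 0 counts in all 6 unstimulated libraries. With anti-CD3 it had 7, 16 and 11 counts with isotype, or 2.12, 3.39 and 1.77 CPM. With anti-LAIR-1 it had 15, 10 and 13 counts, or 2.02, 1.69 and 2.75 CPM. Every stimulated library therefore had more Sema4c counts than any unstimulated one, and the stimulated groups overlapped each other. Against a floor of 3 counts over the unstimulated group, Sema4c was at least 5.83-fold higher with anti-CD3 and isotype and at least 7.80-fold higher with anti-CD3 and anti-LAIR-1. Anti-LAIR-1 with anti-CD3 gave a log2 fold change of −0.19 ± 0.42 (SE, adjusted p = 0.865 by edgeR).

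Sema4a (chr3:88435959-88461182, minus strand), a ligand for T cells that is also made by antigen-presenting cells, was at 20.9, 24.5 and 10.8 CPM in the unstimulated isotype libraries and 16.6, 18.0 and 19.3 CPM with anti-LAIR-1. With anti-CD3 it was at 0.907, 1.48 and 0.643 CPM with isotype, from 3, 7 and 4 counts, and at 2.02, 2.53 and 4.03 CPM with anti-LAIR-1, from 15, 15 and 19 counts. The unstimulated groups overlapped and lay above both stimulated groups, and the anti-CD3 anti-LAIR-1 libraries lay above the anti-CD3 isotype libraries without overlap. The log2 fold change with anti-CD3 was −4.26 ± 0.40 (SE) with isotype and −2.70 ± 0.26 with anti-LAIR-1, so that 5.41% and 15.9% of the unstimulated mean level was left. It ranked 77 from the lowest among 8690 genes in the former contrast and 268 from the lowest among 9000 in the latter.

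With anti-CD3, the Sema4a level was 2.86 ± 1.04 CPM with anti-LAIR-1 against 1.01 ± 0.430 CPM with isotype (SD, n = 3), and it was higher in 3 of 3 mice. The log2 fold change of 1.46 ± 0.49 (SE) had an adjusted p of 0.100 by edgeR, which did not pass 0.05. The gene passed the filter on low counts only by its anti-LAIR-1 libraries. Without the filter the adjusted p was 0.106. Of 17 alternative settings 11 gave an adjusted p, from 0.0714 to 0.343. Without anti-CD3 the log2 fold change was −0.09 ± 0.24 (SE, adjusted p = 0.997), and the difference between both effects was 1.54 ± 0.54 (SE).

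Sema4f (chr6:82911885-82939769, minus strand), another transmembrane class 4 semaphorin, was at 8.94, 17.1 and 8.09 CPM in the unstimulated isotype libraries and at 9.15, 19.9 and 9.64 CPM with anti-LAIR-1. With anti-CD3 it was at 0.302, 1.06 and 1.77 CPM with isotype and at 4.59, 1.86 and 2.12 CPM with anti-LAIR-1, from 17 and 55 summed counts. Mouse 2 had the highest Sema4f level in both unstimulated groups but not with anti-CD3. The unstimulated groups overlapped each other and lay above the anti-CD3 anti-LAIR-1 group, which lay above the anti-CD3 isotype group. The log2 fold change with anti-CD3 was −3.29 ± 0.45 (SE) with isotype and −2.11 ± 0.36 with anti-LAIR-1.

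Counts of Sema4f were too low to be tested between the anti-CD3 groups. The scaled ratio of anti-LAIR-1 to isotype was 2.55 with a counting interval of 1.46 to 4.69, and the gene was higher in 3 of 3 mice, although the largest difference came from mouse 1 with 34 against 1 counts. Tested without the filter on low counts, the log2 fold change of Sema4f was 1.32 ± 0.50 (SE) with an adjusted p of 0.114 by edgeR. Without anti-CD3 the fitted log2 fold change was 0.17 ± 0.33 (SE, adjusted p = 0.997), and the difference between both effects was 1.15 ± 0.66 (SE). The latter ran from 0.56 without the anti-CD3 anti-LAIR-1 library of mouse 1 to 1.79 without the anti-CD3 isotype library of mouse 3, and was 1.95 in 1 of 2 random draws of thinning.

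Sema4b and Sema4d, both transmembrane ligands, were detected in all 12 libraries. Sema4b (chr7:80186841-80226527, plus strand) was at 23.2, 17.1 and 13.5 CPM in the unstimulated isotype libraries and 23.0, 22.3 and 24.4 CPM with anti-LAIR-1, and with anti-CD3 it was at 9.98, 10.2 and 10.6 CPM with isotype and between 7.63 CPM in mouse 3 and 11.2 CPM in mouse 1 with anti-LAIR-1. Unstimulated libraries were above stimulated libraries without overlap, while the isotype and anti-LAIR-1 groups overlapped within each setting. Log2 fold changes of Sema4b with anti-CD3 were −0.87 ± 0.24 (SE) with isotype and −1.21 ± 0.19 with anti-LAIR-1. For anti-LAIR-1 they were −0.04 ± 0.21 with anti-CD3 (adjusted p = 0.951 by edgeR) and 0.33 ± 0.21 without (adjusted p = 0.997).

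Sema4d (chr13:51685529-51793747, minus strand) encodes CD100, a ligand that is abundant on T cells, is shed from the surface and binds plexin B1 and CD72. It was at 66.2, 58.8 and 51.2 CPM in the unstimulated isotype libraries and at 65.4, 55.5 and 56.7 CPM with anti-LAIR-1. With anti-CD3 it was at 54.4, 46.2 and 43.6 CPM with isotype and at 39.8, 48.3 and 47.7 CPM with anti-LAIR-1. Stimulated and unstimulated libraries overlapped with isotype but not with anti-LAIR-1, and the log2 fold changes with anti-CD3 were −0.35 ± 0.14 (SE) and −0.40 ± 0.12. These values depend on the scaling, since upper-quartile scaling moved the median of all genes from −0.03 to −0.20 on the log2 scale with isotype and from −0.04 to −0.24 with anti-LAIR-1. Sema4d was then at −0.52 and −0.61, still below the median of all genes. Sema4d changed with anti-LAIR-1 by −0.09 ± 0.12 (log2, SE, adjusted p = 0.775 by edgeR) in stimulated and −0.00 ± 0.14 (adjusted p = 0.999) in unstimulated cells.

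Both plexins were near the detection limit and passed the filter on low counts in no comparison. Plxnc1 (chr10:94790866-94944835, minus strand), the receptor of Sema7a, had 3, 3 and 4 counts in the unstimulated isotype libraries, 5, 7 and 14 with anti-LAIR-1, 3, 4 and 2 in the anti-CD3 isotype group, and 5, 6 and 4 in the anti-CD3 anti-LAIR-1 group. Its CPM was lower with anti-CD3 in 3 of 3 mice in both settings, with scaled ratios of 0.463 (0.166 to 1.27) with isotype and 0.355 (0.175 to 0.696) with anti-LAIR-1. In mouse 1 the counts were equal with and without anti-CD3 in both settings, so that the lower CPM there came from the scaling. With isotype, mouse 2 had 4 counts with anti-CD3 against 3 without. The isotype and anti-LAIR-1 libraries overlapped with and without anti-CD3. The scaled ratio for anti-LAIR-1 was 1.71 (0.800 to 3.98) without anti-CD3, higher in 3 of 3 mice. With anti-CD3 it was 1.315 (0.539 to 3.41), higher in 2 of 3.

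Plxnd1 (chr6:115954811-115995005, minus strand), a receptor of class 3 and class 4 semaphorins including Sema3e and Sema4a, had 4, 4 and 1 counts in the unstimulated isotype libraries and 1, 0 and 0 with anti-LAIR-1. With anti-CD3 it had 5, 3 and 2 counts with isotype and 10, 14 and 6 with anti-LAIR-1. The unstimulated anti-LAIR-1 libraries were the lowest of the 4 groups and did not overlap any other group, while the remaining 3 groups overlapped. The scaled ratio of stimulated to unstimulated cells was 0.571 (0.209 to 1.59) with isotype, higher in 1 of 3 mice. With anti-LAIR-1 it was 18.5 (3.07 to 753), higher in 3 of 3 mice. The scaled ratio for anti-LAIR-1 was 0.0733 (0.00167 to 0.529) without anti-CD3, from 1 against 9 counts, and 2.37 (1.13 to 5.43) with anti-CD3, from 30 against 10 counts. Plxnd1 was lower in 3 of 3 mice in the former comparison and higher in 2 of 3 in the latter. Tested without the filter on low counts, neither effect passed 0.05 in edgeR (adjusted p = 0.933 without and 0.457 with anti-CD3).

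Of the 8 genes, 5 could be tested for anti-LAIR-1 with anti-CD3 (Sema4a, Sema4b, Sema4c, Sema4d and Sema7a), and Sema7a was the 1 that was called, in the lower direction. Over all genes, 1.86% of the 8800 tested were called lower and 3.90% higher in that comparison. The median log2 fold change was −0.09 over the 5 genes and 0.00 over all genes tested. Without anti-CD3, 0 of the 4 genes tested were called, as were 0 of 8770 genes in all (0.00%) by edgeR and 0 by DESeq2, with 384 and 198 genes at an unadjusted p under 0.05.

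**Figure D2:**
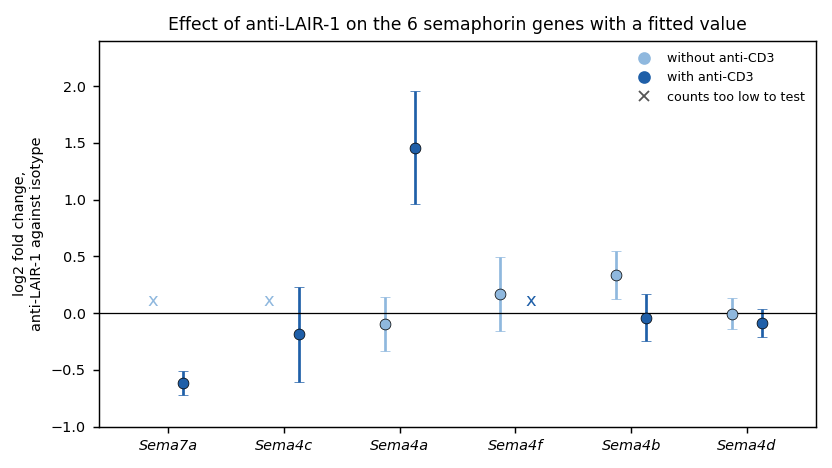
Log2 fold change of anti-LAIR-1 against isotype (vertical axis) for 6 semaphorins, with bars for 1 SE and crosses where counts were too low to test. Sema7a with anti-CD3, at −0.61, is the only point shown that passed an adjusted p of 0.05, and Sema4a with anti-CD3, at 1.46, has the widest bar.

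Levels of other cell types were compared beside these changes. The 7 measured B cell genes, among which Cd74 was the most abundant and Ebf1 was at 0 counts with anti-CD3, summed to 10.6, 12.5 and 10.5 CPM in the anti-CD3 isotype libraries and 7.01, 7.77 and 6.99 CPM in the anti-CD3 anti-LAIR-1 libraries. In the unstimulated groups they summed to 10.3, 9.39 and 18.9 CPM with isotype and 8.59, 11.1 and 19.8 CPM with anti-LAIR-1. The B cell sum was thus lower with anti-LAIR-1 in the stimulated cells. The 8 measured myeloid and dendritic cell genes, led by Cd68 with isotype and Itgax with anti-LAIR-1, summed to 3.93 ± 1.55 and 3.53 ± 0.931 CPM in the anti-CD3 isotype and anti-LAIR-1 groups, with Csf1r and Flt3 at 0 counts in both. Of the naïve T cell genes named above, Lef1, Tcf7, S1pr1 and Klf2 were called higher with anti-LAIR-1 in the stimulated cells by edgeR (3.90% of all genes were), and Ccr7 was not. Of the stimulation genes, 1 of 5 was called lower (1.86% of all genes), namely Il2ra (log2 fold change −0.49 ± 0.08, SE, adjusted p = 0.000820). CD8 T cell genes went from 1931 ± 73.9 to 2466 ± 174 CPM in sum (3 of 6 called higher). Among NK cell genes Klrd1 was called higher (79.6 ± 13.4 to 144 ± 15.9 CPM) and Eomes was not called and lower in mean (43.7 ± 4.57 to 32.9 ± 4.65 CPM). Klrd1 was higher still in the unstimulated cells, at 455 ± 23.3 CPM with isotype and 435 ± 27.6 CPM with anti-LAIR-1. Klrb1c, also an NK cell gene, had 2 and 0 counts in the unstimulated isotype and anti-LAIR-1 groups. With anti-CD3 it had 0 and 1. Genes of antigen-experienced T cells were at 183 ± 4.14 and 179 ± 13.4 CPM (0 of 4 tested called). The platelet gene Ppbp had 0 counts in both isotype groups, 5, 13 and 0 counts in the unstimulated anti-LAIR-1 libraries and 0, 12 and 0 in the anti-CD3 anti-LAIR-1 libraries, and was too low to test. CD4 T cell genes summed to 0.883 ± 0.295 and 0.980 ± 0.717 CPM in the anti-CD3 isotype and anti-LAIR-1 groups. The part of these differences in the changes of the semaphorins was not tested.

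The genes whose pattern over the 12 libraries was most like that of Sema7a were Ccl3, Xcl1, Ccl4, Irf8 and Tnfsf14. Likeness was measured as the root mean square difference of centred log2 CPM (prior count 2), which was 0.49, 0.54, 0.61, 0.69 and 0.78 for these genes in turn. Ccl3, Ccl4 and Xcl1 encode chemokines of activated CD8 T cells, Irf8 a transcription factor and Tnfsf14 the TNF family ligand LIGHT. In the anti-CD3 anti-LAIR-1 group their mean levels were 55.3%, 80.2%, 66.1%, 69.0% and 74.1% of the anti-CD3 isotype level, against 65.4% for Sema7a. Ccl3, for example, was at 1947 ± 138 CPM with isotype and 1076 ± 143 CPM with anti-LAIR-1. Closest to Sema4f were Sytl1 (0.34), Marveld1 (0.38), Abcb1a (0.40), Iffo1 (0.40) and 1110006O24Rik (0.40). With a prior count of 0.5, Ifng took the place of Irf8 and Sgsh that of Abcb1a. The levels of these genes were part of the match and are given as a description.

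The wider family was measured from a list of 76 further genes, of which 14 were other semaphorins and 7 other plexins. The other semaphorins were hardly expressed, since 8 had any counts and none passed the filter in any comparison. Sema4g had 5 and 8 counts in the unstimulated isotype and anti-LAIR-1 groups and 11 and 4 in the anti-CD3 groups, and Sema6c had 4 and 12 counts unstimulated and 0 and 1 with anti-CD3. Of the other plexins, Plxna1, Plxna3, Plxnb1 and Plxnb2 had counts.

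With anti-CD3 and isotype, 8 of the 30 list genes tested were called higher and 14 lower by edgeR, beside 35.3% and 36.1% over all genes. With anti-LAIR-1 in both conditions it was 8 higher and 17 lower of 33, beside 36.4% and 36.3% over all genes. Nrp1, the co-receptor through which class 3 semaphorins bind plexins, was at 0.993, 4.90 and 4.85 CPM in the unstimulated isotype libraries and 28.1, 28.6 and 37.5 CPM in the anti-CD3 isotype libraries. It rose by a log2 fold change of 3.21 ± 0.32 (SE, adjusted p = 5.56e-09) with isotype and 2.76 ± 0.28 (adjusted p = 4.74e-08) with anti-LAIR-1, without overlap between the groups in either setting. Nrp1 passed the filter on low counts only by its anti-CD3 libraries in both settings. It was called in 16 of 16 alternative settings with isotype and in 16 of 16 with anti-LAIR-1. Most of these settings kept the filter, and the fit without it was among those that called the gene.

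Plxna1, a receptor of class 3 and class 6 semaphorins, was at 2.98, 2.04 and 1.08 CPM in the unstimulated isotype libraries and 9.98, 10.4 and 10.8 CPM with anti-CD3. With anti-LAIR-1 the values were 3.33, 6.10 and 4.82 CPM unstimulated and 8.77, 7.60 and 6.57 CPM with anti-CD3, so that the gap between stimulated and unstimulated libraries was narrower. Plxna1 rose with isotype, by a log2 fold change of 2.21 ± 0.38 (SE, adjusted p = 1.49e-05, passing the filter only by its anti-CD3 libraries, or 2.53e-08 without the filter), and anti-CD3 also raised it with anti-LAIR-1 in both conditions, by 0.69 ± 0.29 (adjusted p = 0.0399). The latter call was lost in 11 of 17 alternative settings, among them the replicate block in edgeR (adjusted p = 0.0560) and fits without the unstimulated anti-LAIR-1 library of mouse 1 (0.156) or 3 (0.0721) or the anti-CD3 anti-LAIR-1 library of mouse 1 (0.137) or 2 (0.0682). The difference between both, at −1.56 ± 0.48 (SE), had an adjusted p of 0.100 by edgeR and did not pass 0.05.

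Among signalling genes, Fyn, a Src family kinase that phosphorylates plexins, rose by 1.37 ± 0.10 (log2, SE, adjusted p = 9.96e-12) with isotype and by 1.37 ± 0.08 (adjusted p = 1.44e-11) with anti-LAIR-1. Of the receptors and partners on the list, Itgb1, the beta 1 integrin chain, was called higher with anti-CD3 in both settings by edgeR. Its log2 fold change was 0.99 ± 0.14 (adjusted p = 1.46e-06) with isotype and 0.88 ± 0.12 (adjusted p = 2.16e-06) with anti-LAIR-1. L1cam, an adhesion molecule that joins neuropilin complexes, had 57 counts in the unstimulated isotype group and 4 with anti-CD3, a log2 fold change of −4.69 ± 0.59 (SE, adjusted p = 2.24e-07). In the anti-CD3 contrast with anti-LAIR-1, L1cam changed by −2.71 ± 0.44 (adjusted p = 1.58e-05), and Sh3bp1, a GTPase-activating protein for Rac, by −2.73 ± 0.50 (adjusted p = 6.38e-05), from 64 to 15 counts. Of the 15 counts, 10 came from mouse 3, and the log2 fold change of Sh3bp1 ran from −3.84 to −2.29 over alternative settings, with −3.84 without that library. Both genes passed the filter on low counts only by their unstimulated libraries. Without the filter the adjusted p was 5.35e-12 and 1.23e-08 for L1cam with isotype and anti-LAIR-1 and 1.82e-07 for Sh3bp1. With isotype Sh3bp1 went from 32 to 7 counts with anti-CD3 and was not tested.

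Anti-LAIR-1 changed 3 of the 31 list genes tested in stimulated cells, all in the higher direction (3.90% over all genes). These were Mical1, Ssh2 and Dpysl2, which encode a flavoprotein oxidase that disassembles actin downstream of plexin A, a slingshot phosphatase that activates cofilin, and a collapsin response mediator protein. All 3 had lower levels with anti-CD3 than without, and the anti-LAIR-1 libraries lay between the unstimulated libraries and the anti-CD3 isotype libraries. The median log2 fold change was 0.04 over the 31 genes and 0.00 over all genes.

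Mical1 was at 61.9, 64.1 and 50.7 CPM in the unstimulated isotype libraries, at 3.93, 5.30 and 6.27 CPM with anti-CD3 and isotype, and at 8.50, 10.3 and 12.1 CPM with anti-CD3 and anti-LAIR-1. Each anti-CD3 anti-LAIR-1 library was above each anti-CD3 isotype library. The log2 fold change of anti-LAIR-1 was 0.93 ± 0.25 (SE, adjusted p = 0.0355 by edgeR), higher in 3 of 3 mice. This call was lost in 8 of 17 alternative settings, which were DESeq2 without (adjusted p = 0.0808) and with the replicate block (0.256), thinning in 2 random draws (0.168 and 0.150), and fits without the anti-CD3 isotype library of mouse 1 (0.102) or 2 (0.0963) or the anti-CD3 anti-LAIR-1 library of mouse 2 (0.102) or 3 (0.128). Mical1 fell by 3.50 on the log2 scale (SE 0.20, adjusted p = 3.50e-13) with anti-CD3 and isotype and by 2.59 (SE 0.15, adjusted p = 1.24e-11) with anti-CD3 and anti-LAIR-1.

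Ssh2 was at 319, 342 and 316 CPM in the unstimulated isotype libraries and at 317, 332 and 331 CPM with anti-LAIR-1. With anti-CD3 it was at 52.6, 40.9 and 42.1 CPM with isotype and at 63.9, 75.0 and 68.9 CPM with anti-LAIR-1. The unstimulated groups overlapped, and the stimulated groups did not. Its log2 fold change with anti-LAIR-1 was 0.62 ± 0.11 (SE, adjusted p = 0.00332) in stimulated cells and 0.00 ± 0.09 (adjusted p = 0.998) in unstimulated cells. The difference of 0.62 ± 0.14 (SE) between both had an adjusted p of 0.0134 by edgeR, and Ssh2 was the 1 gene of the 33 tested from the list for which it was called (1.82% of 9223 genes in that direction and 2.07% in either). This call was lost in 1 of 2 random draws of thinning (adjusted p = 0.0986, against 0.0295 in the other) and without the anti-CD3 isotype library of mouse 2 (0.0661) or 3 (0.0560) or the anti-CD3 anti-LAIR-1 library of mouse 2 (0.0577). With anti-CD3 and isotype Ssh2 fell by 2.90 on the log2 scale (SE 0.11, adjusted p = 2.68e-16).

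Dpysl2 went from 46.0, 41.5 and 38.9 CPM with anti-CD3 and isotype to 54.6, 58.0 and 52.5 CPM with anti-CD3 and anti-LAIR-1, again without overlap. The log2 fold change was 0.39 ± 0.11 (SE, adjusted p = 0.0441 by edgeR), higher in 3 of 3 mice, but the call was lost in 10 of 17 alternative settings. These were DESeq2 without (adjusted p = 0.0981) and with the replicate block (0.370), 1 fit over all 12 libraries (0.129), thinning in 2 draws (0.211 and 0.161), and fits without the anti-CD3 isotype library of mouse 2 (0.120) or 3 (0.169) or the anti-CD3 anti-LAIR-1 library of mouse 1 (0.0926), 2 (0.177) or 3 (0.0631). Adam10 and Adam17, proteases that shed membrane proteins from the cell surface, were not called for anti-LAIR-1 with anti-CD3, at log2 fold changes of −0.18 ± 0.11 (SE, adjusted p = 0.373) and −0.05 ± 0.13 (adjusted p = 0.886).

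**Figure D3:**
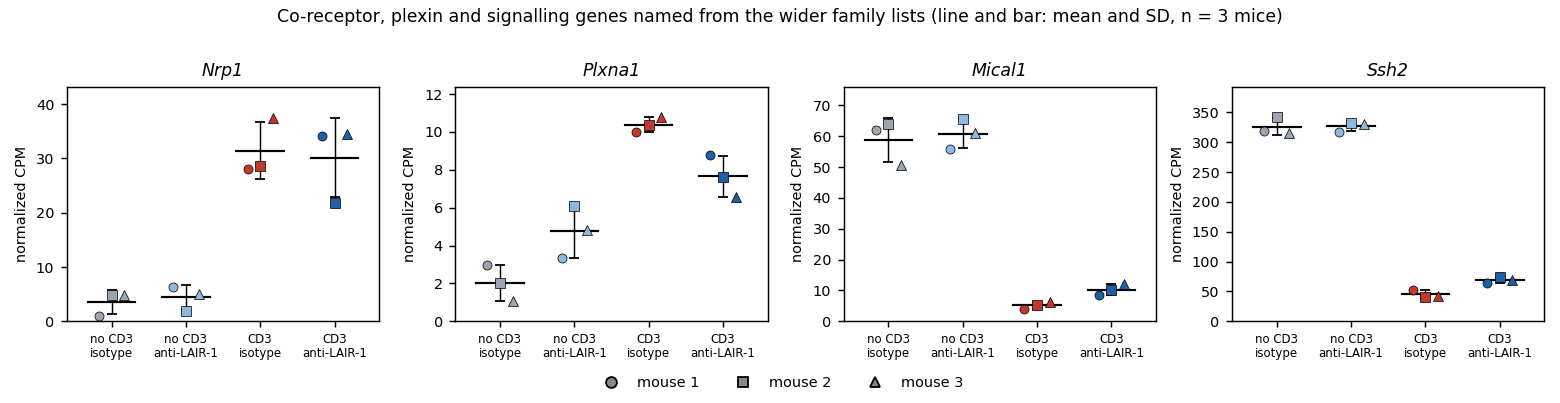
Normalized CPM (vertical axes from 0, with a scale of their own for each gene) of Nrp1, Plxna1, Mical1 and Ssh2 in the 4 conditions, with 1 symbol per mouse and the mean and SD over 3 mice as line and bar. Nrp1 and Plxna1 are higher with anti-CD3, while Mical1 and Ssh2 are lower with anti-CD3 and lie higher with anti-LAIR-1 than with isotype in the stimulated cells.

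The promoters of Sema7a and Sema4f are shown because these genes moved in opposite directions with anti-CD3 and each has a single annotated start. Sequences are RefSeq windows in GRCm38.p6 of 250 bases before to 50 bases after the start, at chr9:57939862-57940161 (plus strand) for Sema7a and chr6:82939720-82940019 (minus strand) for Sema4f. Capitals mark matches on either strand to the motifs searched, which were AP-1 (TGANTCA), the NFAT core (GGAAA), CRE (TGACGTCA), EGR (GCGTGGGCG) and KLF (GGGTGNGG). The motifs were chosen after the values had been seen.
Sema7a: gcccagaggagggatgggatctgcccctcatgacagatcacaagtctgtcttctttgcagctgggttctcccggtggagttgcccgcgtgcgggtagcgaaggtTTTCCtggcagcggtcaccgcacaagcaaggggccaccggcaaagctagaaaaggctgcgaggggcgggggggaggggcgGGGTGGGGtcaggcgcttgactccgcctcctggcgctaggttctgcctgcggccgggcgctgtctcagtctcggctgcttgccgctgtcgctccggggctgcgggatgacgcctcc
Sema4f: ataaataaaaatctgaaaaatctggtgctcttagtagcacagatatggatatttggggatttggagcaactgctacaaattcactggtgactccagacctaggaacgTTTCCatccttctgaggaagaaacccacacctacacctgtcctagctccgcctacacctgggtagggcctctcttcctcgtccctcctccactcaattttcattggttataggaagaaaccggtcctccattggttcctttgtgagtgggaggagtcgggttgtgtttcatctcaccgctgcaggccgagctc
The Sema7a window held 1 NFAT core match and 1 KLF match, and the Sema4f window held 1 NFAT core match, with no match overlapping another. Of 32851 promoter windows of the same length, 61.3% held the NFAT core, 16.6% the KLF letters, 7.81% the AP-1 letters, 1.79% the CRE letters and 0.612% the EGR letters. The GC content was 67.3% in the Sema7a window and 48.7% in the Sema4f window. Sema4c and Sema4d each had 1 window with an AP-1 match among several annotated starts, so the share per window does not apply to them directly. Windows of Sema4a, Sema4c and Sema4d also held KLF matches, and every other member had a window with the NFAT core.

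Overlapping annotation was checked for the 8 genes in GENCODE M21. No other gene overlapped Sema4f, Sema7a or Plxnd1, and no gene overlapped the last 1000 bases of any of the 8, where 3′ counts would fall. D430040D24Rik lay opposite Sema4c, Gm23566 lay opposite Sema4d, and the counting was not stated to use strand.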

How the data were processed

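The counts used here are the raw counts per gene that the authors deposited for all 12 libraries, made with MapAndGo. They rest on BWA MEM alignments of the second CEL-seq read to mm10 transcripts, and reads without a single best position were left out. Whether molecular identifiers were collapsed is not stated in the sources used here. Every column of the count table belonged to a labelled library. Counts were fitted with edgeR 4.0.16 in R 4.3.3 (TMM scaling, filterByExpr, quasi-likelihood F-test, two-sided, Benjamini-Hochberg adjustment over all genes tested, threshold 0.05), with DESeq2 1.42.0 as an alternative. Fits used the 6 libraries of the 2 groups compared, and the interaction used all 12. The fitting was also run on simulated counts, with the same dispersion for every gene and no mouse effect. The outcome is not given here, and no conclusion is drawn from it.

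The genes named were the 8 members in every comparison, the called genes of the family list with the 3 largest and 3 smallest log2 fold changes in each comparison, the genes that check the labels, and the 5 genes most like Sema7a and Sema4f. Ratios in stimulated against unstimulated cells were used for choosing the members. A planned test of the interaction for the members was dropped, because the interaction is the difference of their logarithms. Members and lists were chosen with earlier results of these data known. The list of naïve T cell genes was used without 1 gene of its plan, left out after its values were seen, so no count or sum over that list is given. Genes named outside this rule (Plxna3, Plxna1 with anti-LAIR-1, Itgb1 and Sh3bp1 with isotype, Adam10, Adam17, Sema4g, Sema6c, Nrp2, Cd72, Plxnb1 and Ptprc) were chosen after their values were seen. Libraries of a group differed by more than counting noise (chi-square per gene of 3.82 to 5.62), and none was a copy of another.

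Mouse numbers in the labels pair libraries from the same animal. Deviations from the group means had a mean correlation of 0.0432 over 18 pairs from the same mouse and −0.0216 over 36 pairs from different mice. The study's methods state no block for the mouse, so none was used in the reported fits. Alternatives were other scalings, DESeq2, the replicate block, no filter or a stricter filter, 1 fit over all libraries, each library left out in turn and, chosen after seeing the data, scaling by library totals only and thinning to the smallest total. Thinning was drawn with 2 random seeds, and both draws are reported because calls differed between them. The second seed was tried after the results of the first were known.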

Additional observations from a re-analysis of the deposited data

Results flagged for a closer look

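The effect of anti-LAIR-1 on Ssh2 differed between stimulated and unstimulated cells by 0.62 ± 0.14 on the log2 scale (SE, adjusted p = 0.0134 over 9223 genes, quasi-likelihood F-test in edgeR). In stimulated cells Ssh2 was higher with anti-LAIR-1 in 3 of 3 mice, at 69.3 ± 5.56 against 45.2 ± 6.43 CPM (SD, n = 3). In unstimulated cells it was at 327 ± 8.52 CPM with anti-LAIR-1 and 326 ± 14.3 CPM with isotype. The difference was called in 18 of 22 alternative settings, with adjusted p values from 0.000571 to 0.0986 over all of them.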

How the results depend on the processing

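Sema7a was called lower with anti-LAIR-1 and anti-CD3 in 17 of 17 alternative settings, with log2 fold changes from −0.72 to −0.48 and adjusted p values from 2.2e-10 to 0.0135, and Ssh2 was called higher in 17 of 17. With the replicate block, edgeR called 549 genes for anti-LAIR-1 in stimulated cells (507 without the block), 0 in unstimulated cells, 218 for the interaction, and 6138 and 6478 for anti-CD3 with isotype and anti-LAIR-1. For anti-LAIR-1 in stimulated cells, DESeq2 called 421 genes when fitted without the block and 224 with it. The calls of Mical1 and Dpysl2 were lost in DESeq2 with and without the block and kept in edgeR with it. The call of Plxna1 for anti-CD3 with anti-LAIR-1 was lost in edgeR with the block and in DESeq2 with and without it. Of the other calls of members and named family genes that were followed with the block, none changed. The call of Itgb1 for anti-CD3 with isotype was not followed in the alternatives.

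Thinning to the smallest total was drawn with 2 random seeds. It gave 310 and 325 calls for anti-LAIR-1 with anti-CD3 and 119 and 102 for the interaction (191 before thinning), with fewer counts in every library above the smallest total. The interaction of Ssh2 was lost in the first draw (adjusted p = 0.0986) and kept in the second (adjusted p = 0.0295). Without the filter on low counts, 5 genes were called for anti-LAIR-1 without anti-CD3. Leaving out 1 library gave 293 to 427 calls for anti-LAIR-1 with anti-CD3, with 293 without the anti-CD3 isotype library of mouse 2 and 315 and 334 without the anti-CD3 anti-LAIR-1 libraries of mouse 2 and 3. It gave 0 to 1 without anti-CD3, with 1 call without the unstimulated anti-LAIR-1 library of mouse 2. The interaction gave 103 to 186, with 118 without the unstimulated isotype library of mouse 2, 125 and 121 without the unstimulated anti-LAIR-1 libraries of mouse 1 and 3, 125 and 110 without the anti-CD3 isotype libraries of mouse 1 and 2, and 103 without the anti-CD3 anti-LAIR-1 library of mouse 3.

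Uncalled or untested log2 fold changes near 0 changed sign in some settings. For Sema4d without anti-CD3 (−0.00) these were upper-quartile scaling (0.0054), DESeq2 (0.00014), DESeq2 with the replicate block (0.011), edgeR with the replicate block (0.0077), no filter (0.0012), the stricter filter (0.0031) and the first draw of thinning (0.15). Sema4a without anti-CD3 was at 0.042 and 0.14 in the 2 draws. In the second draw Sema4d was at 0.031 with anti-CD3 and 0.032 for the interaction, and Adam17 was at 0.10 with anti-CD3. Without 1 library the values ran from −0.084 to 0.10 for Sema4d, from −0.33 to 0.12 for Sema4a and from −0.29 to 0.59 for Sema4f. With anti-CD3 they ran from −0.14 to 0.10 for Sema4b, from −0.43 to 0.15 for Sema4c and from −0.17 to 0.0044 for Sema4d, and for the interaction from −0.18 to 0.0082 for Sema4d. The cause of these changes was not tested.

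The interaction of Sema7a (−2.59) ran from −3.51 to −2.12 and that of Sema4f (1.15) from 0.56 to 1.79 without 1 library, with 1.95 for Sema4f in the second draw of thinning. In the anti-CD3 contrasts none of the members fitted there (Sema4a, Sema4b, Sema4d, Sema4f and Sema7a) changed sign. Sema4c, Plxnc1 and Plxnd1 were not fitted in these contrasts. Sema7a with isotype rests on 3 unstimulated counts, and its fitted log2 fold change of 8.94 rose to 9.83 without the unstimulated isotype library of mouse 2. Upper-quartile scaling and library totals lowered the median of all genes in those contrasts, to −0.12 and −0.15 for library totals. Depth limited Plxnc1, Plxnd1, unstimulated Sema7a and stimulated Sema4f, since 3 counts stood for 0.796 to 1.62 CPM in the unstimulated libraries and 0.405 to 0.907 CPM in the anti-CD3 libraries. With 3 libraries per group, and 1 well per mouse and condition, well-to-well variation was not measured apart from mouse-to-mouse variation.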

Other observations

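Other partners of the family were also measured at low counts. Nrp2, a co-receptor of class 3 semaphorins, had 3 counts in each unstimulated group and 4 and 7 with anti-CD3 in the isotype and anti-LAIR-1 groups. Cd72, a receptor of Sema4d that is typical of B cells, had 4 and 7 counts unstimulated and 1 and 3 with anti-CD3. Plxnb1, the plexin that binds Sema4d, had 10 and 15 counts unstimulated and 2 and 5 with anti-CD3. Plxna3 had 8 and 12 counts unstimulated and 36 and 20 with anti-CD3, where its log2 fold change with anti-LAIR-1 was −1.16 ± 0.48 (SE, adjusted p = 0.195, quasi-likelihood F-test in edgeR) and did not pass 0.05. In that comparison Plxna3 passed the filter on low counts only by its isotype libraries, and without the filter the adjusted p was 0.293 by edgeR. Ptprc, which encodes CD45, was at 794 ± 40.6 CPM in the unstimulated isotype group and 890 ± 27.2 CPM in the anti-CD3 isotype group (SD, n = 3).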
